A study of Mus musculus with 12 samples.

Results

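Fetal-restricted promoters were taken as captured promoters whose gene had an FPKM of at least 2 in fetal haematopoietic stem cells (HSCs) and a fetal to adult FPKM ratio of at least 4, each FPKM raised by 0.1. FPKM is RNA-seq signal scaled for transcript length and library depth, as deposited by the authors, and the members were thus selected on expression, chosen by values of both populations. The rule found 118 promoters of 110 genes among 3753 promoters with contacts within their own chromosome (3.14%). They carried 2502 of 88475 such contacts. The first capture batch held 42 of them (34 genes, 1191 contacts, 2.17% of its promoters) and the second 76 (76 genes, 1311 contacts, 4.19% of its promoters). No member gene or fragment was captured in both batches, so the second batch shows other genes and does not repeat the first.

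Contacts were measured by promoter Capture-C, in which cross-linked chromatin is cut with DpnII, ligated, and enriched with oligonucleotide probes for chosen promoters, so that the ligated partner shows what each promoter touched. Fetal HSCs came from the livers of B6129SF1 mouse embryos at day 14.5 and adult HSCs from the bone marrow of B6129SF1 mice aged 6 to 8 weeks. Both were sorted as Lin-Sca1+cKit+CD135- cells, and the labels name no transgene or treatment. Each population gave 4 libraries, 2 in each of 2 batches, and 4 samples of the HPC7 cell line were not analysed here. The deposited table gives 1 value per population and batch, with libraries pooled, so no value below has a replicate error and no p-value is given. Intervals are exact 95% intervals that cover counting error only, and contacts of 1 promoter in neighbouring bins are not independent.

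A fetal liver HSC divides and expands its pool, while most HSCs of the adult marrow are quiescent. The RNA-binding protein Lin28b and the Igf2bp proteins, the chromatin protein Hmga2 and the imprinted growth genes Igf2, H19 and Dlk1 are known for high expression in fetal cells and for a decline after birth. The fetal liver is also the site of red cell production, carried out around resident macrophages, and red cell genes such as Klf1 and the globins and macrophage genes such as Marco and Cd5l are known from those cell types. A promoter's distal contacts include enhancers, which are marked by open chromatin and by histone modifications, and other promoters.

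The promoters behind the main contrasts are shown first, as the 150 bases before the RefSeq start of the gene (GRCm38.p6), 5′ to 3′ in the direction of the gene. The captured fragments themselves are given on mm9, and no base of them was read. Capitals mark 4 motifs searched on both strands: TATAAA (the TATA box), AGATAA (bound by GATA factors), GAGGAA (the core bound by the ETS factor PU.1) and CCNCNCCC (bound by KLF factors). Overlapping matches were merged in the capitals. Marco (chr1:120505025-120505174, minus strand), a macrophage scavenger receptor, had the most one-sided fetal calls among members with at least 20 calls. Lin28b (chr10:45470202-45470351, minus strand), which blocks let-7 maturation, and Igf2bp3 (chr6:49214955-49215104, minus strand), which binds messenger RNA, led the fetal growth genes. Ctsg (chr14:56102575-56102724, minus strand) encodes the neutrophil protease cathepsin G. Klf1 (chr8:84901832-84901981, plus strand), the master regulator of red cell genes, held the largest adult excess among member contacts with at least 50 counts. Rhd (chr4:134864386-134864535, plus strand) encodes the Rhesus antigen of red cells.
Marco: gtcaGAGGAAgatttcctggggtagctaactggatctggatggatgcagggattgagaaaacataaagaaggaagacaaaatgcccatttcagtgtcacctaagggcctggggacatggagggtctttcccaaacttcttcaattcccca
Lin28b: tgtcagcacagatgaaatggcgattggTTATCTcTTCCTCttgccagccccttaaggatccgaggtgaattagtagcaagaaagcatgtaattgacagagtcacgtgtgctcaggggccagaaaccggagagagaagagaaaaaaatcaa
Igf2bp3: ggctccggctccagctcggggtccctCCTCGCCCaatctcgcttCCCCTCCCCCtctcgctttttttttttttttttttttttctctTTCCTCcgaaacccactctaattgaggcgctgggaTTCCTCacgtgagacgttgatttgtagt
Ctsg: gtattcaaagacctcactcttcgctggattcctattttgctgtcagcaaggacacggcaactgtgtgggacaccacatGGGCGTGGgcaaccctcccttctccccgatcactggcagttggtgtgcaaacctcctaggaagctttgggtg
Klf1: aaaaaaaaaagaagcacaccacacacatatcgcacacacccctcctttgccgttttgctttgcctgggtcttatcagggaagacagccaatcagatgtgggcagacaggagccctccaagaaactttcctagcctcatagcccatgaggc
Rhd: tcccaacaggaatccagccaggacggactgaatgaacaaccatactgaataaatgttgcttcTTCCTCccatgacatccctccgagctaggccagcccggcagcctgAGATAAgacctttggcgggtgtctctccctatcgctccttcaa

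Of the 110 member genes, 86 had a RefSeq promoter in the table used (83 by symbol, 3 through a synonym), with 120 starts in all. In the 250 bases before the start, GAGGAA lay in 33.3% of these promoters, against 23.3% of the 32851 promoters in the table. CCNCNCCC lay in 62.5% against 45.9%, AGATAA in 12.5% against 9.99% and TATAAA in 8.33% against 12.4%. GAGGAA was found at 11 of 22 promoters of the macrophage and myeloid surface genes and at 8 of 14 promoters of the fetal growth genes. It was also found at 4 of 8 promoters of the neutrophil and eosinophil granule genes. AGATAA was found at 4 of 20 promoters of the erythroid genes. CCNCNCCC was found at 10 of these 20 (50%), a lower share than among all members. Lin28b and Rhd held both AGATAA and GAGGAA, Igf2bp3 held GAGGAA and CCNCNCCC, Marco held GAGGAA, Ctsg held CCNCNCCC, and Klf1 held none of the 4 in the stretch shown. These matches describe letters and not binding, and the motifs were picked after the members were known. Only the letters given were searched, so other forms of a factor's site go unmarked.

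The rule used FPKM, so expression is given as a description only. Fetal FPKM ran from 2.03 to 400.2 with a median of 6.32, and adult FPKM from 0 to 84.0 with a median of 0.437. The ratio had a median of 9.99 and reached 97.2 at H19, whose 2 promoters had fetal FPKM of 168 and 209 against 1.63 and 2.15 in adult cells. Hmga1, a chromatin protein of dividing cells, had the highest fetal FPKM (400.2 against 84.0) and is one of few members with a high adult level. Other high fetal values were those of Lgals1, the lectin galectin-1 (135 against 6.49), and the metallothionein Mt1 (55.7 against 6.81). Just inside the threshold were Ccnf with a ratio of 4.02, Oaf with 4.08 and Cd68 with 4.14. Just outside lay Slc25a21 with 3.998 and Slc39a8 with 3.96. The authors' deposited table marked 114 of the 118 as differentially expressed, and the exceptions were Cd68, Dab2_2, Fcnb and Tyrobp.

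Many members are known markers of cells other than HSCs. Of a list of 30 macrophage markers, 17 had captured promoters and 9 were members (Marco, Cd5l, C1qa, C1qb, C1qc, Emr1, Csf1r, Cd68 and Slc40a1). All 17 had higher FPKM in fetal cells, where they ran from 0.164 to 14.7 and summed to 87.3, against 0 to 1.14 and a sum of 4.59 in adult cells, with Timd4 at 0. Of 26 erythroid markers, 15 were captured, 13 were higher in fetal cells and 8 were members, with sums of 259 and 208, of which Car2, carbonic anhydrase 2, made up 74.7 and 148. Hbb-bh1, an embryonic globin, stood at 0.102 and 0. Of 14 neutrophil and monocyte granule markers, 10 were captured, 9 were higher in fetal cells and 8 were members (sums 152.5 and 38.9). Of 8 endothelial markers 7 were captured, 4 were higher in fetal cells and 2 were members (sums 36.5 and 35.6). The endothelial markers Pecam1, Tek and Esam were higher in adult cells. No hepatocyte marker was captured. Of 10 megakaryocyte and mast cell markers 6 were captured, none was higher in fetal cells (sums 46.5 and 230.03) and none was a member. Of 23 proliferation genes 12 were captured and all 12 were higher in fetal cells (sums 366 and 174), with Plk1 the only member. Captured regulators that fetal and adult HSCs share numbered 14, with FPKM of 7.76 to 125 in fetal and 1.54 to 262 in adult cells. Several of them, such as Tal1 and Gata2, are also expressed in red cell or megakaryocyte progenitors, so they do not set HSCs apart. Of the 14, 13 had lower fetal FPKM (sums 402 and 690) and only Gfi1 was a member. The sort was set to leave out cells with lineage markers. In these bulk populations more cells of a type and more RNA per cell cannot be told apart, and the part of such cells in the contacts was not tested. Of the 18 genes of the fetal HSC list, 15 were captured, all 15 were higher in fetal cells, and 10 were members.

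A deposited score above 0 was read as a call. Member promoters had slightly more fetal than adult calls in both batches. In the first batch 752 fetal and 694 adult calls were listed, with 497 fetal-specific, 439 adult-specific and 255 shared contacts. The fetal-specific share of the contacts called in 1 population was 53.1% (49.8 to 56.3), and 52.1% over all captured promoters of that batch. Second-batch members had 893 fetal and 803 adult calls, with 508 fetal-specific, 418 adult-specific and 385 shared contacts. The fetal-specific share was 54.9% (51.6 to 58.1), against 53.7% over all promoters. Both intervals held the share of all promoters. Promoters with the mirrored, adult-restricted expression pattern stood lower, at 49.2% (46.6 to 51.9) of 77 promoters' specific contacts and 50% (46.9 to 53.0) of 84 promoters' specific contacts. Members shared fewer of their contacts between the populations than promoters outside both expression classes: 33.9% (30.5 to 37.4) of first-batch fetal calls against 39.6%, and 43.1% (39.8 to 46.4) of second-batch fetal calls against 52.1%. Adult-restricted promoters shared 36.2% (33.3 to 39.1) and 55.3% (52.4 to 58.2), so the low share of the first batch was not particular to the members.

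Counted by promoter, more members leaned fetal than adult in both batches. In the second, 45 members leaned fetal, 21 leaned adult and 10 had equal calls, so that 68.2% (55.6 to 79.1) of those with unequal calls leaned fetal, against a background of 56.6% over all promoters that the interval holds. In the first batch 22 leaned fetal, 17 leaned adult and 3 were equal (56.4%, 39.6 to 72.2), against 52.5%. Adult-restricted promoters leaned fetal in 45.2% of cases in each batch. Of the 118 members, 4 had no fetal call and 3 no adult call, and 42 had fewer than 10 contacts. At least 10 contacts were listed for 33 of 42 and 43 of 76 members in the respective batches. Over all promoters they were listed for 1339 of 1939 and 1138 of 1814. With a stricter score the first batch leaned the other way, at 48.6%, where all promoters stood at 43.6%, and the second stood at 57.1% (43.2 to 70.3), against 50.7%.

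**Figure D1:**
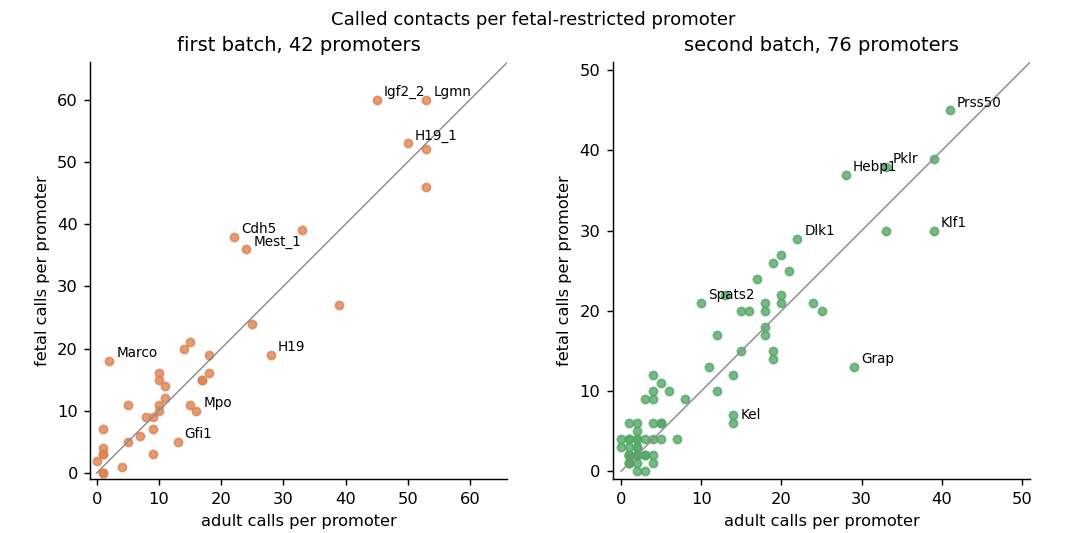
Each point is a member promoter, with its adult calls on the horizontal and its fetal calls on the vertical axis, and the line marks equal numbers. Marco lies far above the line with 18 fetal and 2 adult calls, while Grap with 13 and 29 and Klf1 with 30 and 39 lie below it.

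Among the 59 members with at least 20 calls, Marco was the most fetal (18 fetal and 2 adult calls). It was followed by Spats2 (21 and 10), by Cdh5, the VE-cadherin of endothelial junctions (38 and 22), by the LIM-domain gene Crip2 (22 and 13), and by Fcnb, the granule lectin ficolin B (16 and 10). The most adult were Kel, a blood group antigen of red cells (6 and 14), the adaptor gene Grap (13 and 29), Atp1b2, a sodium pump subunit (7 and 14), Mpo, the myeloperoxidase of neutrophil granules (10 and 16), and the H19 promoter with the weaker count (19 and 28). These 5 were picked for their calls, and of them only Kel also had fewer fetal than adult counts before centring. The most fetal calls were held by Lgmn (60, with 53 adult), Igf2_2 (60 and 45) and H19_1 (53 and 50) in the first batch. In the second they were held by Prss50 (45 and 41), Hcn3 (39 and 39) and Pklr, the red cell pyruvate kinase (38 and 33).

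Counts showed a small shift toward fetal cells. Fetal counts were divided by adult counts, with 1 added to each, and the log2 of that ratio had a median of 0.14 over all contacts of the first batch and 0.23 over those of the second, on which it was centred. Member contacts then had a median of 0.10 (0.01 to 0.18) and 0.11 (0.06 to 0.15) in the respective batches. Adult-restricted promoters stood at -0.14 in each batch. With centring, 53.3% and 56.4% of member contacts lay above the median, and without it 55.8% and 65.9% lay above 0, against 53.0% and 61.5% of all contacts. Scaling by the total of listed counts moved the median of all contacts to -0.09 and 0.08, and the member medians to 0.01 and 0.18. Of the second-batch contacts 150 of 1311 member contacts were at least 2-fold higher in fetal cells (11.4%, 9.77 to 13.3), against 7.87% of all contacts. There 81 were at least 2-fold higher in adult cells (6.18%), against 7.30%. In the first batch the shares were 15.4% and 14.2%, against 15.5% and 16.1%, so no excess over the background was seen.

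Summed over the listed contacts of a promoter, and centred on the median promoter, the member median was 0.05 (-0.02 to 0.16) over the 42 promoters and 0.13 (0.02 to 0.23) over the 76. Of the 42 members 24 lay above the median promoter (57.1%), and of the 76 members 50 did (65.8%), where 50% of all promoters do. At least 1.5-fold higher in fetal cells were 6 of 42, against 8.10% of all promoters, and 7 of 76, against 6.01%. At least 1.5-fold higher in adult cells were 3 of 42, against 8.56%, and 3 of 76, against 5.95%. Adult-restricted promoters were past that fold toward fetal cells in 12 of 77 cases (15.6%) and 4 of 84 (4.76%). Toward adult cells they were past it in 10 and 8 cases, and their medians were 0.00 and -0.11. The first-batch share of 14.3% toward fetal cells was thus not particular to the members. Among members with at least 10 contacts these numbers were 2 higher and 2 lower of 33, and 0 higher and 0 lower of 43. All 7 of the second batch thus rested on fewer contacts. Over all promoters with at least 10 contacts, 41 were higher and 28 lower of 1339 in the first batch. For the second batch, 10 were higher and 9 lower of 1138. Promoters with that many contacts rarely passed the fold, so its rarity was not particular to the members. Listed contacts enter the table because they were called in a population, so a promoter with few contacts, all called in fetal cells, has a high count ratio in part by that selection. Across members the FPKM ratio and the count ratio ranked together weakly, with Spearman's rho of 0.11 over the 42 and 0.15 over the 76, and of 0.32 over the 33 and 0.08 over the 43 with at least 10 contacts. The FPKM ratio is a value the rule used.

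**Figure D2:**
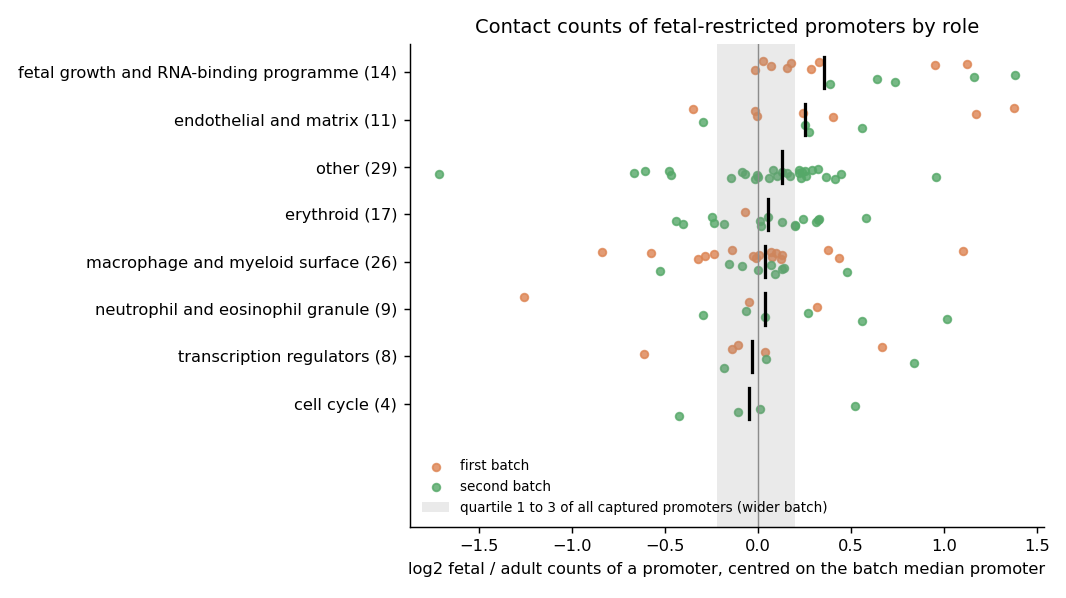
The horizontal axis gives log2 of fetal over adult counts at a promoter's listed contacts, centred on the median promoter of its batch. Points are members by role, black bars are role medians and the grey band runs from quartile 1 to 3 of all captured promoters. Of the 14 promoters of the fetal growth and RNA-binding programme 13 lie above 0, against 50% of all promoters.

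The fetal growth and RNA-binding genes leaned fetal most uniformly. Of their 14 promoters, 9 in the first batch and 5 in the second, 12 leaned fetal by calls, 1 leaned adult and 1 was equal. Over all promoters, 52.5% and 56.6% of those with unequal calls leaned fetal in the respective batches. The promoter median was 0.36, ranging from -0.02 to 1.38. Several of the highest ratios rested on few contacts: 3 for Lin28b, 2 for Igf2bp3, 4 for Igf2bp2, and 5 each for Igf2bp1 and the promoter named Igf2. The gene grouping was made after the members were known and is a description. Lin28b had 3 contacts, all called in fetal cells alone, with 58 fetal and 19 adult counts in total (1.38). At its bin 348 kb away the counts were 20 and 2, at 350 kb 21 and 5, and at 108 kb 17 and 12. Igf2bp1 had 4 fetal calls and 1 adult call and 131 against 69 counts (0.73), and Igf2bp2 had 4 and 1 with 82 against 46 counts (0.64). Igf2bp3 had its strongest contact at 140 kb, in the bin that holds the captured promoter of 2410003K15Rik, with 133 fetal and 55 adult counts and scores of 86.8 and 22.1. That contact was called in both populations, and the partner gene had FPKM of 5.88 and 1.56. Hmga2, the embryonic chromatin protein, did not share the lean, with 5 calls in each population and 57 against 51 counts.

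Igf2 and H19 are neighbours and are reciprocally imprinted, and their 5 member promoters overlap in the bins they meet. H19_1 and Igf2_2 met 48 bins in common, so they count the same chromatin more than once. Igf2_1 (mm9, chr7:149843126-149845182) had 11 fetal and 5 adult calls, none shared, with 152 against 65 counts (1.12). Of its 11 fetal calls 4 lay at bins marked as active enhancers in fetal cells, and none of its 5 adult calls lay at an adult one. Of these 4 bins only that 203 kb away was marked in fetal cells alone. The others, 317, 177 and 121 kb away, were active enhancers in both populations. Igf2_2 had 60 and 45 calls with a ratio of 0.18, and the promoter named Igf2 had 4 and 1 with 0.95. The H19 promoters lay on both sides, at -0.02 with 19 and 28 calls and at 0.29 with 53 and 50 calls. Dlk1, the imprinted Notch-family ligand, had 29 and 22 calls (0.39). The 2 promoters of Mest, an imprinted hydrolase gene, had 3 and 1 calls (0.32) and 36 and 24 calls (0.03).

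The 26 promoters of macrophage and myeloid surface genes were spread around the median promoter, with 11 leaning fetal and 13 adult by calls and a median of 0.04. Among all promoters with unequal calls, 52.5% and 56.6% leaned fetal in the respective batches. Marco (mm9, chr1:122400034-122401717) stood apart within the macrophage group, with 152 fetal and 66 adult counts (1.10). Its 18 fetal-specific contacts were weak, with 6 to 13 fetal counts each. At its strongest, 162 kb away, the counts were 13 and 7, at 180 kb 11 and 2, and at 336 kb 8 and 0. None of its bins was marked as an active enhancer in either population. Cd5l, a protein secreted by tissue macrophages, had 20 and 14 calls (0.44). The complement genes C1qa, C1qb and C1qc, whose FPKM ratios were 25.7 to 39.3, stood at -0.32, 0.12 and -0.01 with 15 and 17, 52 and 53, and 46 and 53 calls. Csf1r, the receptor for macrophage colony-stimulating factor, stood at -0.03 with 318 against 305 counts, Emr1, the F4/80 antigen, at 0.13 with 150 against 129, and Cd68, a lysosomal glycoprotein, at 0.07 with 1166 against 1040. Slc40a1, the iron exporter ferroportin, had 56 against 55 counts (-0.16). The C1q genes lie side by side, and C1qb and C1qc met 41 bins in common. The lysosomal protease gene Lgmn had 60 and 53 calls at 1 promoter (0.09) and 3 and 9 at the other (-0.84).

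**Figure D3:**
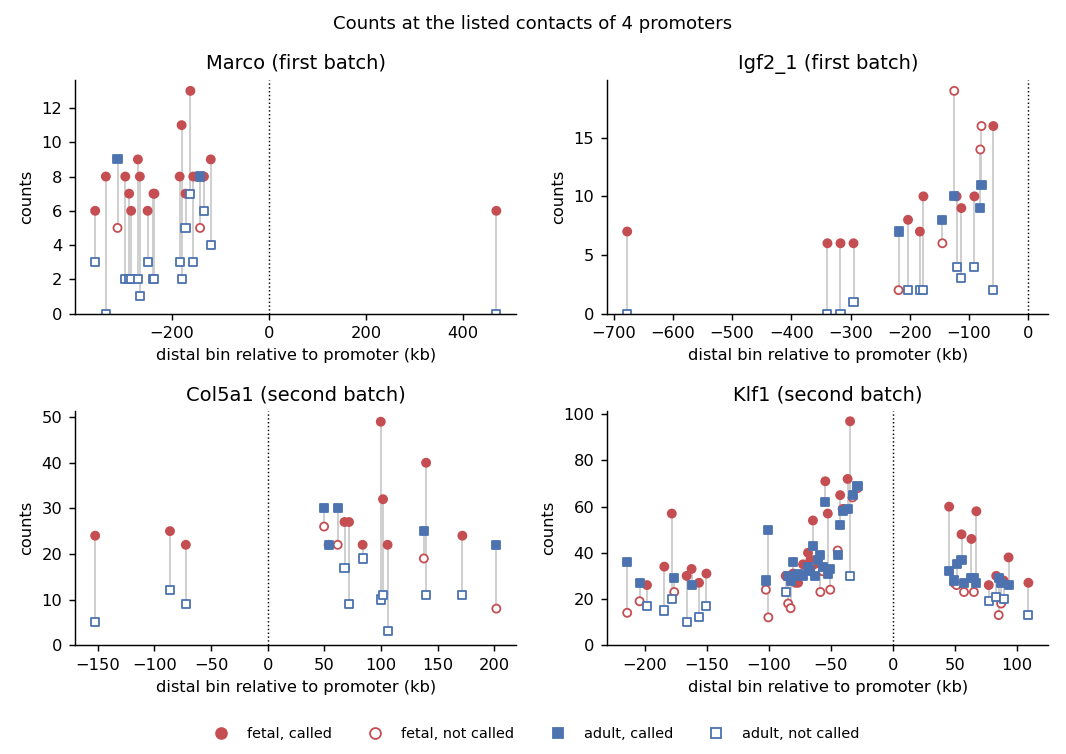
Counts at every listed contact of Marco, Igf2_1, Col5a1 and Klf1 are plotted against the position of the distal bin relative to the promoter in kb, along the chromosome's numbering; circles are fetal and squares adult values, filled where the contact was called. Fetal counts exceed adult counts at most contacts of Marco, while Klf1 has a bin at -100 kb with 12 fetal and 50 adult counts.

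Of the 17 erythroid promoters, 16 of them in the second batch, 12 leaned fetal by calls and 4 adult, with a median of 0.05. Over all promoters of that batch, 56.6% of those with unequal calls leaned fetal. Pklr (38 and 33 calls, 2124 against 1500 counts, 0.32), Rhd (20 and 18, 0.33) and Spnb1, the red cell spectrin (10 and 4, 0.58), leaned fetal. Kel leaned adult (266 against 319 counts, -0.44). Klf1 (mm9, chr8:87424745-87426183), with FPKM of 24.0 and 2.40, had 30 fetal and 39 adult calls and near-equal counts of 1874 and 1641 (0.01). Within it single contacts went both ways. The bin holding the captured promoter of Nfix, a regulator of blood stem and progenitor cells, 100 kb away, had 12 fetal and 50 adult counts (-2.20), the largest adult excess among the members' 706 contacts with at least 50 counts. Nfix had FPKM of 4.39 and 13.8, the reverse of Klf1. A bin 214 kb away had 14 and 36 counts (-1.53), and a bin 178 kb away had 57 and 20 (1.24). The globin genes lay on both sides of the median promoter. Hbb-y, an embryonic globin, had 72 against 51 counts (0.31), and Hbb-b1 had 1316 against 1535 (-0.40, interval -0.51 to -0.30). Hba-a1 summed to 55448 fetal and 55647 adult counts, of which 54778 and 54992 lay in 1 bin 13.6 kb away, and Hbb-b2 had 1 contact with 7475 and 7785 counts. Hba-a1, Hbb-b1 and Hbb-b2 have near-identical copies in these clusters, so these values are uncertain.

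Granule genes of neutrophils and eosinophils had 5 promoters leaning fetal and 2 adult of 9, with a median of 0.03. The background for each group here was 52.5% and 56.6% leaning fetal, over all promoters with unequal calls in the respective batches. Ctsg had 4 fetal calls and no adult call with 70 against 30 counts (1.01), and Camp, the antimicrobial cathelicidin, had 9 and 3 (0.56). Prg2, the eosinophil major basic protein, had a single adult call with 3 and 8 counts (-1.26, interval -4.05 to 0.55). Elane, neutrophil elastase, had 2 calls in each population, S100a8 12 and 4, and S100a9 6 and 4, the last pair forming the calprotectin complex. Of the 11 endothelial and matrix promoters 7 leaned fetal and 3 adult, with a median of 0.25. Sox18, an endothelial transcription factor, had 7 fetal calls and 1 adult call with 90 against 32 counts (1.37). Its contact with the bin of the Uckl1 promoter, 87.3 kb away, had 28 and 3 counts. Col5a1, a fibrillar collagen gene, had 11 and 5 calls with 411 against 246 counts (0.56), and 2 of the 5 largest fetal excesses among single contacts with at least 50 counts, 49 against 10 counts at 99.8 kb and 40 against 11 at 140 kb. The 8 promoters of transcription regulators leaned adult in 5 cases and fetal in 3 (median -0.03). Gfi1, a repressor that restrains HSC cycling, differed between its promoters: 5 and 13 calls with 147 against 212 counts (-0.62) at one, and 9 and 8 calls with 152 against 139 counts (0.04) at the other. Id2, an inhibitor of basic helix-loop-helix factors, had 165 against 81 counts (0.84), and Cited4, a transcriptional co-activator, 785 against 788 (-0.19). The cardiac kinase gene Mylk3 had no fetal call and 19 against 57 counts at 3 adult-specific contacts (-1.72), the lowest value of all members. Of the 4 cell cycle genes Plk1 had 98 against 60 counts (0.52), and the median was -0.05.

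The 29 promoters outside these roles were all captured in the second batch, with 15 leaning fetal, 10 adult and 4 equal and a median of 0.13. Among all promoters of that batch with unequal calls, 56.6% leaned fetal. Cnn3, a calponin that binds actin, had 6 fetal calls and 1 adult call with 146 against 66 counts (0.95). Spats2 had 690 against 511 counts (0.25) and the protease gene Prss50 2090 against 1564 (0.24). The metallothioneins Mt1 and Mt2, neighbours on the chromosome, had 1186 against 1052 counts (-0.01) and 84 against 54 (0.45), and Lgals1 had 30 and 33 calls with 2487 against 2044 counts (0.10). Below the median promoter were the amino acid transporter gene Slc38a5 (77 against 95 counts, -0.48) and a promoter of Lmna, the nuclear lamin A gene (145 against 177, -0.47). Cnn3, Slc38a5, Lmna, Mylk3, Id2 and Spnb1 were picked after their values were seen.

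Some members met other members. Hcn3, a pacemaker channel gene, and Pklr met each other from both sides, with 201 fetal and 124 adult counts from Hcn3 and 223 and 130 from Pklr, called in both populations. Fcnb, captured in the first batch, met the bin of Col5a1 with 15 and 6 counts, and Col5a1, captured in the second batch, met the bin of Fcnb with 27 and 17. Both contacts were called in fetal cells only. Pairs called in adult cells alone were Igf2_1 with H19 (14 fetal and 9 adult counts) and with H19_1 (16 and 11). So was Atp1b2 with Cd68 (25 and 22). From Hbb-b1, the contact with the bin of Hbb-b2 was called in adult cells alone (255 and 293). From Hbb-b2, the contact with the bin of Hbb-b1 was called in both populations (7475 and 7785). These pairs were singled out after their values were seen. Bins with a captured promoter made up 3.95% (2.91 to 5.21) and 6.03% (4.80 to 7.45) of member contacts in the respective batches, against 4.62% and 5.96% over all promoters. Across all members 2273 distinct bins were met, and 181 of them by more than 1 member. The largest overlaps were between promoters of 1 gene or of neighbouring genes. They were H19_1 with Igf2_2 (48 bins), C1qb with C1qc (41), H19 with H19_1 (26) and Hcn3 with Pklr (25). Among contacts with at least 50 counts, others with a large fetal excess were those of Grap with the bin of B9d1, 147 kb away (43 against 10 counts), of Irf8, a myeloid transcription factor (43 against 11), and of Arhgdig (45 against 12). Other adult excesses were those of Cited4 (18 against 45), Ccnf (18 against 39) and Pdia2 with the bin of Nme4 (18 against 39).

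Fetal calls reached farther than adult calls, as they did over all promoters. In the first batch the median distance was 180 kb (172 to 188) for fetal and 156 kb (148 to 168) for adult calls, against 178 and 153 kb over all promoters. For the second batch it was 82.4 kb (79.5 to 85.2) and 61.9 kb (59.8 to 64.6), against 102 and 77.7 kb. The members of the second batch were thus shorter in reach than its other promoters, while the difference between populations, 20.5 kb, was close to the 24.1 kb of all. Fetal-specific contacts of the second batch had a median of 97.4 kb, shared ones 67.5 kb and adult-specific ones 56.0 kb. Of the members with at least 5 calls in each population, 36 of 38 had the longer median in fetal cells in the second batch and 23 of 32 in the first, against 955 of 1129 and 853 of 1272 over all promoters. At 150 to 400 kb the second-batch members had a centred ratio of 0.48 (0.26 to 0.62) over 180 contacts, against 0.15 over the promoters outside both expression classes. At 20 to 60 kb they stood at -0.12 against -0.17. The first batch showed no such gap, with 0.18 (0.05 to 0.27) against 0.14 at 150 to 400 kb.

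**Figure D4:**
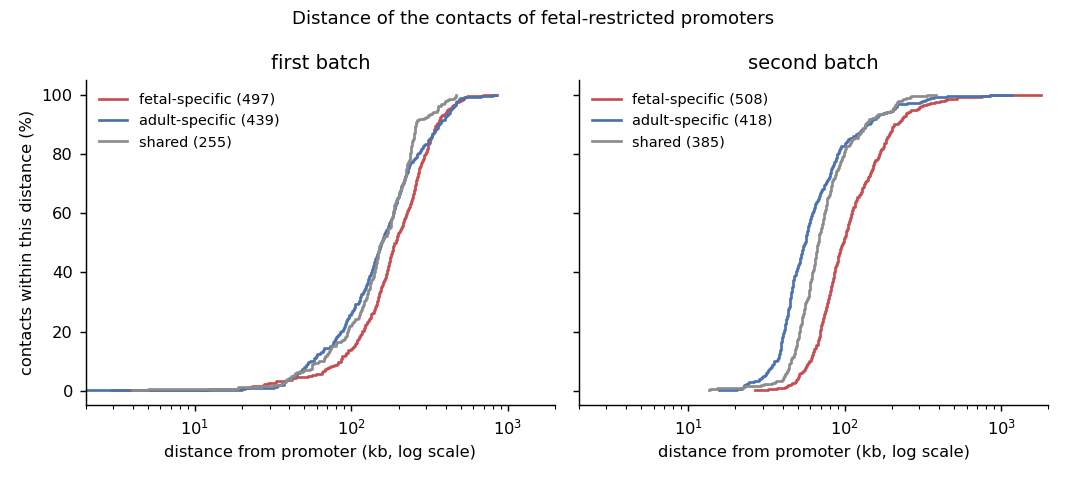
The share of member contacts within a given distance of the promoter is plotted for fetal-specific, adult-specific and shared contacts, with distance in kb on a log scale. The second-batch fetal-specific curve lies to the right, with a median of 97.4 kb against 56.0 kb for adult-specific contacts.

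The deposited table marks each bin as an enhancer, a promoter or open chromatin (ATAC) in each population. Fetal calls of members lay at fetal active enhancers in 14.4% (11.9 to 17.1) of cases in the first batch, and adult calls at adult active enhancers in 11.8% (9.51 to 14.5), against 12.8% and 13.3% at promoters outside both expression classes. The second-batch shares were 9.63% (7.78 to 11.8) for fetal and 10.1% (8.09 to 12.4) for adult calls, below the 13.2% and 14.0% of those promoters. Members also met fewer bins with the active promoter mark: 9.18% and 9.94% of first-batch fetal and adult calls against 16.2% and 18.8%, and 13.4% and 15.3% in the second against 18.8% and 20.9%. Open bins took 47.3% and 50.6% of calls in the first batch against 53.6% and 54.9%, and 53.0% and 51.7% in the second against 57.4% and 57.9%. Adult-restricted promoters were also low, with active promoter bins at 10.4% of first-batch fetal calls and 16.5% of first-batch adult calls, and at 14.5% and 15.4% of second-batch calls. Their open bins took 49.3% and 54.3%, and 53.3% and 55.4%. The low shares of fetal calls were thus not particular to the fetal-restricted promoters.

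**Figure D5:**
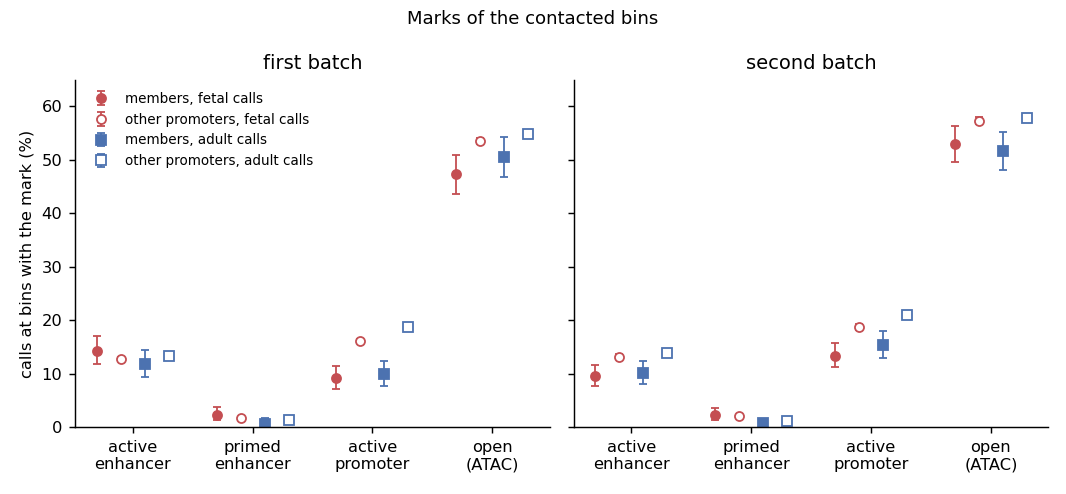
The vertical axis gives the percent of calls at bins with each mark in the same population, with exact 95% intervals, for members (filled) and promoters outside both expression classes (open). Member shares at active promoter bins lie between 9.18% and 15.3%, below the 16.2% to 20.9% of the other promoters.

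Marks present in 1 population alone were counted next. The active enhancer mark was fetal-only at 70 contacts and adult-only at 38 in the first batch (64.8%, 55.04 to 73.8), against 56.9% of all such contacts. The second-batch numbers were 40 and 32 (55.6%, 43.4 to 67.3), against 53.5%, and members chosen with a ratio of at least 8 gave 47.5%. Primed enhancers, by the usual definition enhancers that lack the mark of activity, were fetal-only at 27 and adult-only at 5 contacts in the first batch (84.4%, 67.2 to 94.7), against 58.5%. In the second they were 24 and 7 (77.4%, 58.9 to 90.4), against 63.7%. The first-batch interval for primed enhancers lay above the background, and the other 3 intervals held it. The active promoter mark went the other way, with 6 fetal-only and 18 adult-only contacts (25%) against 35.9%, and 14 and 28 (33.3%) against 36.5%. Open chromatin in 1 population was fetal at 97 and adult at 83 contacts (53.9%), against 57.7%, and at 99 and 66 (60%), against 57.5%. Bivalent promoters were fetal-only at 14 and adult-only at 11 contacts (56%), against 73.9%, and at 18 and 7 (72%), against 73.2%. Poised enhancers were few, with 3 fetal-only and 3 adult-only contacts, against 69.7%, and 4 and 5, against 75.8%. Of the 70 contacts with a fetal-only active enhancer 25 were called in fetal cells alone, 13 in both populations and 32 in adult cells alone, and their median centred ratio was -0.14. Of the 40 of the second batch 15 were fetal-specific, 14 shared and 11 adult-specific, with a median of 0.14. The fetal-specific share of those called in 1 population was 43.9% (30.7 to 57.6) and 57.7% (36.9 to 76.6) in the respective batches. Over all contacts with such a bin it was 54.8% and 59.6%, with medians of 0.04 and 0.09. Both member intervals held the share of all contacts.

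The bin that holds a member's own promoter was marked in the table where another promoter met it, for 22 members of the first batch and 48 of the second. It carried the active promoter mark in fetal cells for 7 of 22 (31.8%, 13.9 to 54.9) and 12 of 48 (25%, 13.6 to 39.6), and in adult cells for 3 (13.6%) and 10 (20.8%). Over all promoters the shares were 60.5% and 66.4% in fetal and 63.0% and 72.2% in adult cells. Adult-restricted promoters were as low in fetal cells, at 31.4% and 29.4%, and stood at 45.1% and 47.1% in adult cells. Among first-batch members the active promoter mark was fetal-only at 7, which included Gfi1, Hmga2, Id1 and Lrrc25. It was adult-only at 3, Hmga1, Mpo and Rasip1, and none had it at both stages. In the second batch it was fetal-only at 5 members, adult-only at 3 (Myo7a, Oaf and Slc6a9) and present at both stages at 7. All 3 listed Igf2 promoters had the bivalent mark, of promoters with both activating and repressive modifications, at both stages. The own bin was open for 18 of 22 (81.8%) and 46 of 48 (95.8%) members in fetal cells, against 91.1% and 97.0% of all promoters. In adult cells it was open for 16 (72.7%) and 40 (83.3%), against 90.9% and 96.3%.

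Calls and counts did not always point the same way. The counts compared here were not centred, and over all contacts they leaned fetal, with median log2 ratios of 0.14 and 0.23. Of the 418 adult-specific contacts of the second batch, 82 had more fetal than adult counts (19.6%, 15.9 to 23.8), against 14.4% over all promoters. In the first batch 19 of 439 did (4.33%), against 2.75%. Igf2_1, for example, had 19 fetal and 10 adult counts at a bin 125 kb away that was called in adult cells only. The reverse was rare: 4 of 508 fetal-specific contacts of the second batch had more adult counts (0.79%), against 0.44% over all promoters. Among these 4 was S100a9 with the bin of S100a8 (61 and 70). It held for 0 of 497 in the first batch, against 0.14%. The median called contact of a first-batch member held 11 counts in either population, and that of a second-batch member 29 fetal or 28 adult counts. The smallest score was 1.3 in the first batch and 2.0 in the second, so the batches differed in depth per contact and in the score required.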

How the data were processed

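Promoter Capture-C was measured in 4 fetal liver and 4 bone marrow HSC libraries. The submitters' processing notes list Trim Galore 0.41, Bowtie2 2.2.2 and mm9, with no role or order. The authors deposited, per the file headers, whole-number counts and a score per contact and population, pooled over libraries, FPKM per promoter, and marks of 0 or 1 for 2 kb bins; how FPKM and marks were made is not given in the sources used here. The score is 0 where a contact was not called.

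Computed here with Python 3.11.15, pandas 2.3.3, NumPy 2.4.6 and SciPy 1.17.1: members by the expression rule, distances between midpoints, log2 count ratios centred per batch, and exact Clopper-Pearson or order-statistic 95% intervals. 12 contacts between chromosomes were left out. The planned edgeR test needs values per library. Summaries were tested on simulated data. Members, lists, roles and motifs were chosen with earlier results of these data known. Genes were named for FPKM, FPKM ratio, calls (at least 20), single contacts (at least 50 counts), list membership and nearness to the threshold; others were chosen after their values were seen. 1 promoter near the threshold is not reported here. Alternatives covered the rule, score, distance, promoters, scaling, pseudocounts, low counts and marks. Per-library depth is unknown. Listed counts summed to 14599 and 12768 for first-batch members and 104853 and 97655 for second-batch members in fetal and adult cells. Of the second-batch sums, 54778 and 54992 lay in 1 bin of Hba-a1 and 7475 and 7785 in 1 contact of Hbb-b2.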

Additional observations from a re-analysis of the deposited data

How the results depend on the processing

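Of 128 alternative values 100 moved within their interval, 22 moved beyond it and 6 turned direction. With an FPKM pseudocount of 1 the share of first-batch promoters with more fetal calls fell from 56.4% to 48.1%, and with a stricter score to 48.6%. The fetal-only share of the active enhancer mark turned in the second batch from 55.6% to 47.5% at an expression ratio of at least 8 and to 47.4% with an FPKM pseudocount of 1. With other marks the fetal-only share was 25% and 33.3% (active promoter), 84.4% and 77.4% (primed enhancer) in the respective batches and 53.9% (open chromatin) in the first. Merging called bins up to 5 kb apart raised the fetal-specific share to 56.9% and 64.7%, and a ratio of at least 8 lowered it to 51.5% in the second batch. The share of contacts above the median ratio became 50.3% in the first batch at a ratio of at least 2, 57.7% and 67.7% without centring (contacts at 0 left out), and 60.9% in the second when scaled by totals.

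The fetal median distance of the first batch became 166 kb at a ratio of at least 2, 195 kb with a pseudocount of 1, 169 kb without the 5 promoters of most contacts and 157 kb without members on the lists of other cell types; the adult median became 176, 141 and 137 kb under the last 3. In the second batch the fetal median became 93.7 kb and 76.9 kb at ratios of at least 2 and 8, 76.5 kb with a pseudocount of 1 and 76.8 kb with a stricter score, and the adult median 71.2 kb at a ratio of at least 2. Causes were not tested. Leaving out members on the lists of other cell types, an alternative added after the data were seen, gave fetal-specific shares of 51.5% and 54.7%. No paired analysis was possible because the deposited values pool the libraries of a population; the contact-level test and leaving out replicates were not run. Depth limits the first batch most, where called contacts rest on a median of 11 counts.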
